A study of Mus musculus with 5 samples.

Results

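Mitochondrial ribosomal protein genes were taken as the protein-coding genes of the GENCODE M21 annotation whose symbol is Mrpl or Mrps followed by a number. There were 78 such genes among 21938 protein-coding genes on the mouse chromosomes. A gene was counted as having a region when the midpoint of a region of the deposited table lay within 1 kb of one of its transcript starts, and 26 of the 78 genes had one. The measurements came from retinas of wild-type mouse embryos at embryonic stage E16.5, 4 retinas pooled, in which Cleavage Under Targets and Tagmentation (CUT&Tag) was performed with a rabbit antibody against Pou4f1 (2 libraries) or with rabbit IgG (2 libraries). Pou4f1 is a POU-homeodomain transcription factor of retinal ganglion cells. An H3K9AC library of the same series was not analysed here. The table gives a value per region in each of the 4 libraries, taken here as a mean signal over the region. Its scaling is not stated in the sources used here. One of the control columns of the table is named IgG and the other a negative control. The study used no negative control other than rabbit IgG, so both columns were treated as IgG libraries. Whole dissociated retina was used, so the share of cells with Pou4f1 at a region and its amount per cell cannot be told apart. Of 9 retina genes looked up for orientation, 8 had a region within 10 kb, and Pou4f1 itself had 6. No share of all coding genes at that distance is given beside this count, so it does not show specificity.

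Mitochondria keep a ribosome of their own that translates the messages of mitochondrial DNA, all of which code for inner-membrane proteins of oxidative phosphorylation. Its ribosomal RNAs come from mitochondrial DNA, but every protein of its small subunit (mostly Mrps symbols) and large subunit (Mrpl symbols) is encoded in the nucleus and imported. Part of these proteins descend from bacterial ribosomal proteins and the others were added in the mitochondrial lineage. Neurons with long axons, such as retinal ganglion cells, depend strongly on oxidative phosphorylation. Promoters of nuclear genes for mitochondrial proteins are known for binding sites of NRF1, ETS-family factors such as GABPA, and YY1.

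Sequences are shown for the members with the highest mean Pou4f1 signal and for the one with the most CCAAT elements, Mrps12, which was chosen after its values were seen. Each is the part of the central 200 bases of the region up to 50 bases after the transcript start nearest to the midpoint. It was read from GRCm38 (mm10) 5′ to 3′ on the strand of the gene. Capitals mark matches, on either strand, to the ETS core CCGGAAG in Mrps14, to the NRF1 core GCGCANGCG and CCAAT in Mrpl32, to the NRF1 core and the SP core GGGCGG in Mrpl17, and to CCAAT and the SP core in Mrps12.
Mrps14, chr1:160195282-160195353, plus strand: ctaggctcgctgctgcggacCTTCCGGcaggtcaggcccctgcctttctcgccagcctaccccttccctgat
Mrpl32, chr13:14613115-14613302, minus strand: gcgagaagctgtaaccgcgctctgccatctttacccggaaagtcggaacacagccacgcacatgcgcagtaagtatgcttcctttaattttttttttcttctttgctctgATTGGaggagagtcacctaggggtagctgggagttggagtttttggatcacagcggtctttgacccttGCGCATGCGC
Mrpl17, chr7:105811049-105811164, minus strand: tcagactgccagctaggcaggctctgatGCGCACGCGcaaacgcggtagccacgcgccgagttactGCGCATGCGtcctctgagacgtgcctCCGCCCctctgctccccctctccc
Mrps12, chr7:28741820-28742019, minus strand: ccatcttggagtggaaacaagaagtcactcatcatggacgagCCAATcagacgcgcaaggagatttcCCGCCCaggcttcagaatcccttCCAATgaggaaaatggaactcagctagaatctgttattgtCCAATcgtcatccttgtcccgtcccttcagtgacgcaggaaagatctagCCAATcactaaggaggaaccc
The transcript start nearest to the midpoint lies at base 22 of the Mrps14 sequence, where the capitals of the ETS core run across it. This start is downstream of the 5′ end of Mrps14 at chr1:160195215, so the whole Mrps14 stretch lies within the gene. In the other sequences the start is the 5′ end of the gene. It lies at base 138 of the Mrpl32 sequence, 66 of the Mrpl17 sequence and 200 of the Mrps12 sequence. In Mrpl32 the capitals at the 3′ end hold matches on both strands that overlap each other. The Mrps12 stretch holds CCAAT on the strand of the gene at bases 43, 91, 131 and 180, between the diverging starts of Mrps12 and Sars2.

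The 26 regions lay at promoters. Each gene had 1 region, the regions were distinct, and 25 of them covered a transcript start of their gene. The exception was Mrpl14, a large-subunit protein of bacterial descent, whose region (chr17:45684891-45686177) ended upstream of the gene and overlapped 0 of its exon bases. The distance from the midpoint to the nearest transcript start had a median of 93 bp among the 26 genes, with a range of 1 to 911 bp, against a median of 98 bp over the 4948 regions within 1 kb of any coding start. In 24 of 26 genes the midpoint lay within 300 bp of the start, on the upstream side in 14 of all 26 and on the downstream side in 12. Coding sequence of the gene was covered in 24 regions, by 11 to 583 bp, and not at Mrpl14 or Mrpl48. The members nearest to the 1 kb limit were Mrpl34 (911 bp), Mrpl14 (788 bp) and Mrps28 (296 bp) on the inside. On the outside they were Mrpl3 (2734 bp), Mrpl22 (3250 bp) and Mrpl35 (4542 bp), so no gene lay just outside the limit.

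**Figure D1:**
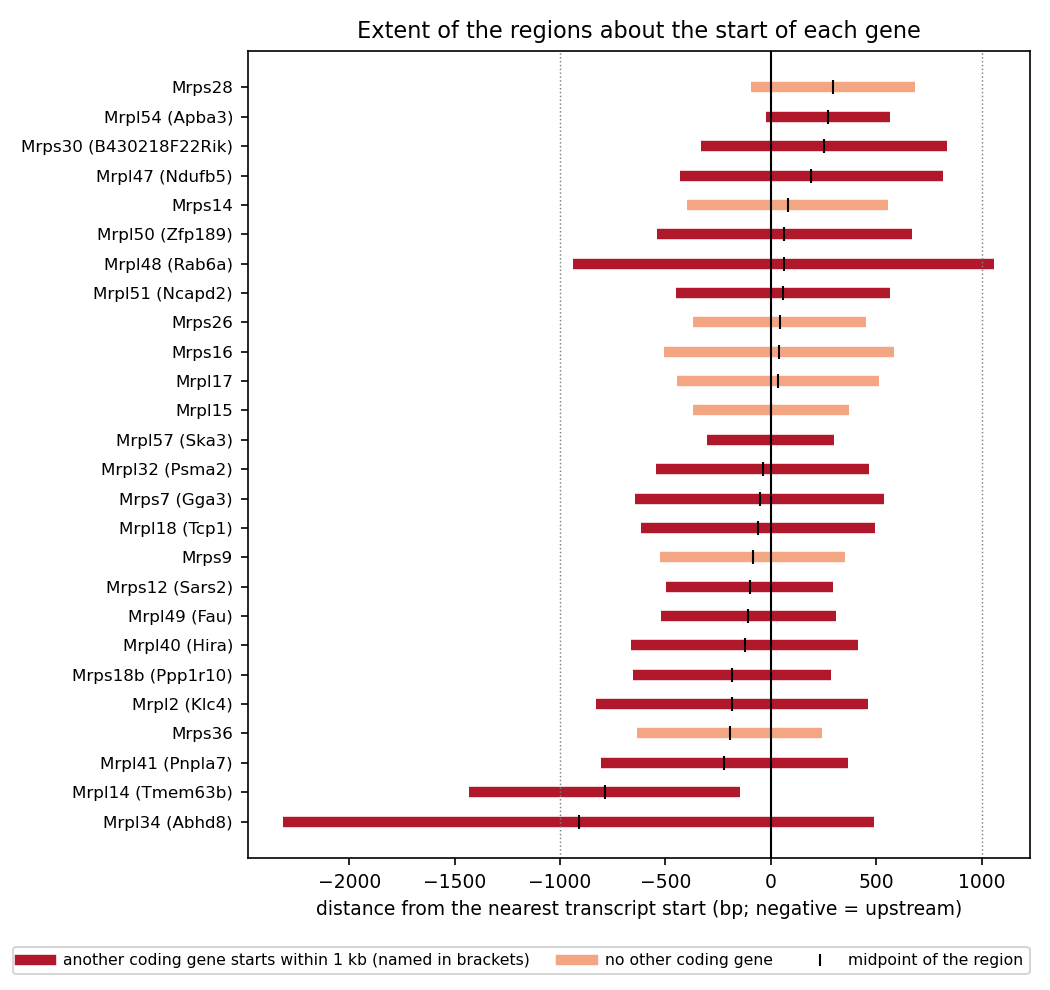
Extent of the 26 regions (bars) about the nearest transcript start of each gene (0 on the horizontal axis, in bp, negative upstream), with the midpoint as a black tick and the 1 kb limits as dotted lines. Dark bars mark the 18 regions that another coding gene, named in brackets, shares; all regions but that of Mrpl14 cross the start.

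Most of these regions belonged to a start that faced another gene. At 18 of 26 regions (69.2%) another coding gene also started within 1 kb of the midpoint, in each case on the opposite strand. Over all regions within 1 kb of a coding start, 670 of 4948 (13.5%) had 2 or more coding genes, and counted by gene 1332 of the 5470 coding genes with a region (24.4%) shared it. The gap between the facing starts had a median of 164.5 bp and ran from 36 bp (Mrpl54 and Apba3) to 1304 bp (Mrpl34 and Abhd8). At some pairs the midpoint lay nearer to the start of the partner, as at Mrps18b (184 bp, against 6 bp for Ppp1r10). At others it lay nearer to that of the member, as at Mrpl57 (1 bp, against 48 bp for Ska3). A region that spans facing starts cannot be assigned to either gene of the pair.

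The partner genes served various functions. Some belonged to mitochondria or to protein synthesis and folding: Sars2, the mitochondrial seryl-tRNA synthetase, opposite Mrps12, Ndufb5, a subunit of respiratory complex I, opposite Mrpl47, Fau, which encodes a ubiquitin-like fusion to a cytosolic ribosomal protein, opposite Mrpl49, and Tcp1, a subunit of the cytosolic chaperonin, opposite Mrpl18. Others were Psma2 (a proteasome subunit) opposite Mrpl32, Rab6a (a Golgi GTPase) opposite Mrpl48, Hira (a histone chaperone) opposite Mrpl40, Ncapd2 (a condensin subunit) opposite Mrpl51, Ska3 (a kinetochore protein) opposite Mrpl57, Klc4 (a kinesin light chain) opposite Mrpl2 and Gga3 (a Golgi adaptor) opposite Mrps7. The remaining partners were Ppp1r10 with Mrps18b, Pnpla7 with Mrpl41, Zfp189 with Mrpl50, Apba3 with Mrpl54, Abhd8 with Mrpl34, Tmem63b with Mrpl14 and B430218F22Rik with Mrps30. A region of their own was found at Mrps14, Mrpl17, Mrps28, Mrps9, Mrps36, Mrps26, Mrps16 and Mrpl15.

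The question of whether these genes have regions more often than other genes was addressed by shares. A region was present at 26 of 78 mitochondrial ribosomal protein genes (33.3%, 95% exact binomial interval 23.1 to 44.9) and at 5470 of 21938 coding genes (24.9%), a share inside that interval. Cytosolic ribosomal protein genes had a region in 34 of 80 cases (42.5%, 31.5 to 54.1) and nuclear respiratory chain genes in 33 of 87 (37.9%, 27.7 to 48.97), so the intervals of the 3 families overlapped. By subunit, 8 of 26 genes of the small subunit (30.8%) and 17 of 51 of the large subunit (33.3%) had one, with Mrps30 and Mrps18a counted in the large subunit, where their proteins reside. Mrps36, whose product is now assigned to the 2-oxoglutarate dehydrogenase complex, had one as well. Within the small subunit the count was 6 of 16 proteins of bacterial descent and 2 of 10 mitochondria-specific ones, and within the large subunit it was 8 of 30 and 9 of 21. These intervals cover counting of genes only, and neighbouring genes are not independent.

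Promoter type moved with these shares. Of the 78 genes, 56 (71.8%) had a CpG-rich promoter, defined as at least 50% GC and an observed-to-expected CpG ratio of at least 0.6 from 250 bp before to 50 bp after the 5′ end, against 41.3% of all coding genes. Among CpG-rich genes the share with a region was 37.5% (21 of 56, 24.9 to 51.5) for the mitochondrial ribosomal protein genes and 44.8% (4056 of 9059) for all coding genes. Among the others it was 22.7% (5 of 22, 7.82 to 45.4) and 11.0% (1414 of 12879). The order of the family and the background was thus opposite in the CpG-rich and the other genes, with both background shares inside the family's intervals.

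Shared starts moved with it too. A second coding gene started within 1 kb of the 5′ end in 34 of the 78 genes (43.6%) and in 3033 of 21938 coding genes (13.8%). In such genes a region was present in 17 of 34 (50%, 32.4 to 67.6), against 45.2% of all coding genes of this kind. In genes with a 5′ end of their own it was present in 9 of 44 (20.5%, 9.80 to 35.3), against 21.7%. Among the mitochondrial ribosomal protein genes with a region 65.4% had a shared 5′ end, and among those without it 32.7%. The part of either promoter property in the shares was not tested.

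**Figure D2:**
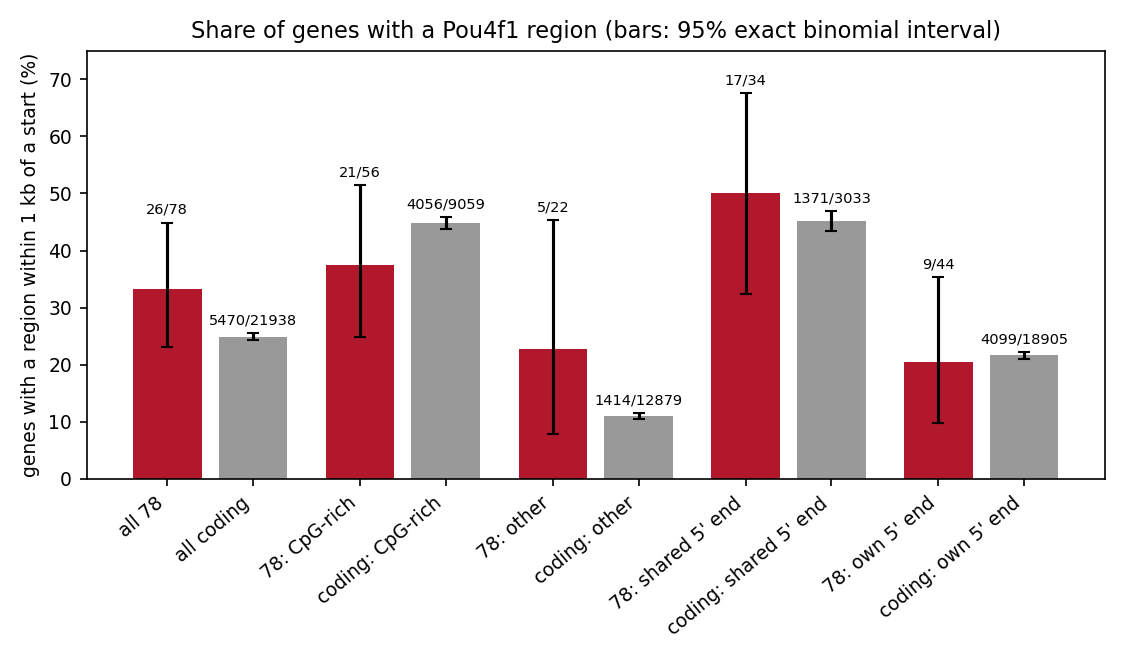
Percentage of genes with a region within 1 kb of a transcript start, for the 78 mitochondrial ribosomal protein genes (dark bars) and all coding genes (grey), in all and by promoter type, with counts above and 95% exact binomial intervals. The 33.3% of the family stands above the 24.9% of all coding genes, and each grey value lies within the interval of the dark bar beside it.

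A region was missing at 52 genes. In the small subunit these were Mrps2, Mrps5, Mrps6, Mrps10, Mrps11, Mrps15, Mrps17, Mrps18c, Mrps21, Mrps22, Mrps23, Mrps24, Mrps25, Mrps27, Mrps31, Mrps33, Mrps34 and Mrps35. In the large subunit they were Mrpl1, Mrpl3, Mrpl4, Mrpl9, Mrpl10, Mrpl11, Mrpl12, Mrpl13, Mrpl16, Mrpl19, Mrpl20, Mrpl21, Mrpl22, Mrpl23, Mrpl24, Mrpl27, Mrpl28, Mrpl30, Mrpl33, Mrpl35, Mrpl36, Mrpl37, Mrpl38, Mrpl39, Mrpl42, Mrpl43, Mrpl44, Mrpl45, Mrpl46, Mrpl52, Mrpl53, Mrpl55, Mrpl58 and Mrps18a. Mrpl12, known to bind the mitochondrial RNA polymerase, and Mrpl58, a peptidyl-tRNA hydrolase built into the large subunit, were among them. The table lists called regions alone, so the signal at these 52 promoters is not known and a missing region does not show an absence of Pou4f1.

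At the 26 regions the Pou4f1 signal was above both IgG libraries in every case. The members had median signals of 203 (Pou4f1 replicate 1), 138 (Pou4f1 replicate 2), 6.95 (library named IgG) and 8.11 (library named negative control). Over the 4948 coding-start regions the medians were 183, 130, 5.52 and 10.3 in the same order. Both Pou4f1 values exceeded both IgG values at 26 of 26 member regions. The same held at 96.5% of all 8038 regions of the table, which were taken as called with Pou4f1 against IgG. A separation at nearly every region is thus the background of this table and not particular to the family.

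The IgG values were sparse. The library named IgG was listed at 0 at 11 of the 26 regions and the library named negative control at 9. Within each library, signal times region length was a whole multiple of one step, to within 0.05 of a step, at each of the 26 regions. Where the value was above 0, its median was 160 steps in each of the IgG libraries, against 4192.5 steps in Pou4f1 replicate 1 and 2055 steps in replicate 2. The highest IgG value was 730 steps in the library named IgG and 790 in the other. If a step is read as 1 covered base, which the sources do not state, an IgG value here rests on the bases of a few fragments.

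In the small subunit, the 6 members of bacterial descent spanned the range from the top to the lower part of the family. Mrps14, a protein of the head of the subunit (chr1:160194905-160195860), had the highest mean signal of all 26 members, with 505 and 314 in Pou4f1 replicates 1 and 2, 0 in the library named IgG and 14.4 in the library named negative control. Mrps28 had 204 and 228, against 15.7 and 0. Mrps9 had 257 and 141, against 0 and 7.59. All of these Pou4f1 values lay far above the control values, although the order of the replicates differed between Mrps28 and the other two genes.

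Mrps12, the counterpart of the bacterial decoding-centre protein S12, had 248 and 143 in the Pou4f1 libraries and 15.4 and 0 in the IgG libraries. Mrps16 had 136 and 165, against 11.2 and 61.2, the latter being the highest IgG value at any member. Mrps7, a protein that contacts the small ribosomal RNA early in assembly, had 94.97 and 119, against 2.19 and 29.3. Within the small subunit the negative control library came closest to the Pou4f1 libraries at Mrps16 and Mrps7, and replicate 2 was the higher one at both. Among the mitochondria-specific proteins of the small subunit, Mrps18b had 371 and 231, against 13.0 and 0. Mrps26 had 203 and 135, against 0 and 8.63. Mrps36, outside the ribosome, had 232 and 152, against 0 and 16.2, close to the family's middle.

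The large subunit held the next highest members and the lowest ones. Mrpl32, whose maturation by an inner-membrane protease is a step in ribosome assembly, had a Pou4f1 signal of 510 and 306, with 0 and 41.8 in the IgG libraries. Mrpl17, which lies near the peptide exit tunnel, had 392 and 275, against 10.7 and 14.9. Mrpl47 had 295 and 189, against 18.9 and 0. These members and Mrps14 and Mrps18b were the 5 highest of the family.

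Among the other large-subunit proteins of bacterial descent, Mrpl18 had 300 and 90.2 in the Pou4f1 libraries and 0 and 25.3 in the IgG libraries. Mrpl15 had 185 and 85.1 with both IgG libraries listed at 0. Mrpl2, the counterpart of a conserved protein next to the peptidyl transferase centre, had 126 and 83.6, against 4.72 and 5.51. The replicates differed most in Mrpl18 of these. Mrpl34, whose region is the longest of the family at 2805 bp, had 134 and 45.4, against 19.8 and 25.04. Mrpl14 was lowest of all members, with 86.3 and 40.2, against 9.18 and 20.03. Mrpl34 and Mrpl14 were also the members whose midpoints lay farthest from the start.

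Of the mitochondria-specific proteins of the large subunit, Mrpl48 had 220 and 227 in the Pou4f1 libraries and 0 and 20.9 in the IgG libraries. Mrpl41 had 252 and 172, against 10.4 and 7.59. Mrpl50 had 203 and 213, against 10.1 and 0. The replicates lay close together in Mrpl48 and Mrpl50. Mrpl51 had 178 and 115, against 0 and 28.1. Mrpl40 had 135 and 106, against 11.0 and 7.42. Mrpl54 had 204 and 49.8 with both IgG libraries listed at 0. Mrpl54 thus had the widest gap between replicates beside IgG libraries without signal. Mrpl49 had 140 and 43.7, against 26.5 and 16.8. Mrpl57 had 116 and 61.2 with both IgG libraries listed at 0. Mrps30 had 103 and 66.3, against 10.1 and 0. At Mrpl49 replicate 2 stood closest to an IgG library of all members by difference in signal, and at Mrps30 and Mrpl57 the low Pou4f1 signal met low IgG signal.

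**Figure D3:**
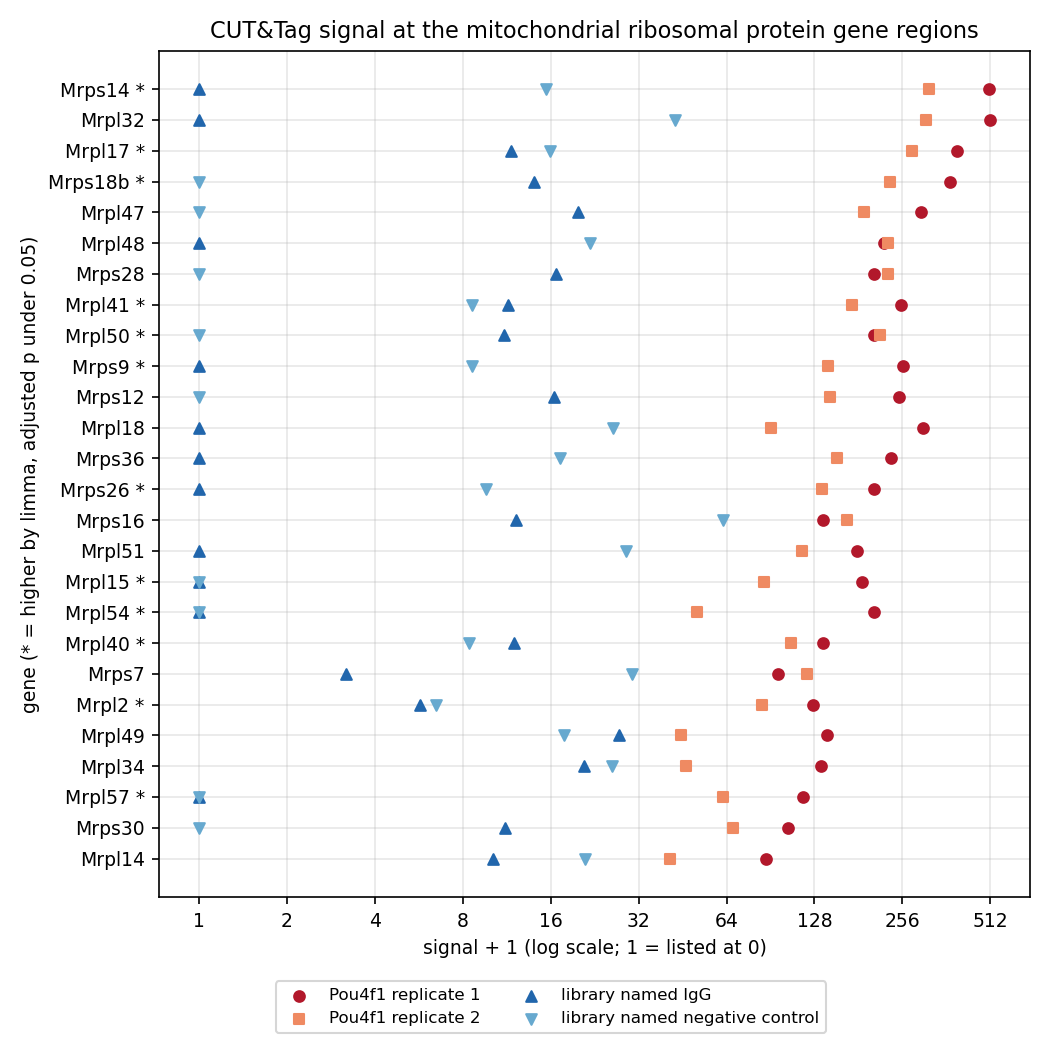
Signal plus 1 on a log axis (1 stands for a value listed at 0) in the 4 libraries at each of the 26 regions, ordered by mean Pou4f1 signal, with an asterisk at the 12 genes called by limma. Both Pou4f1 libraries lie to the right of both IgG libraries at all 26 genes, and at 14 genes exactly 1 IgG library is at 0 while the other is not.

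Limma on log2(signal + 1), fitted over all 8038 regions with Benjamini-Hochberg adjustment, called 12 of the 26 regions higher with Pou4f1 than with IgG (adjusted p under 0.05) and 0 lower. All 8038 regions were taken as called with Pou4f1 against IgG, so the direction was largely set beforehand. The p-values do not measure enrichment apart from that selection. The background was 64.8% of all regions called higher, 62.0% of the coding-start regions called higher and 0.224% of all regions called lower. The members' 46.2% lay below the background in this fit. That side was not kept in the fits without an IgG library, and with a pseudocount of 10 the shares were close. The called genes were Mrps9, Mrps14, Mrps18b and Mrps26 in the small subunit and Mrpl2, Mrpl15, Mrpl17, Mrpl40, Mrpl41, Mrpl50, Mrpl54 and Mrpl57 in the large subunit. The difference, Pou4f1 minus IgG, had a median of 5.53 on the log2(signal + 1) scale over the 26 members, against 4.91 over coding-start regions and 5.22 over all regions. Without the library named IgG the order was the opposite, with a median of 4.24 in the members and 4.61 over all regions, and likewise without the negative control library, with 4.60 and 5.42.

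The calls moved with the number of IgG libraries listed at 0. At the 3 members with both IgG libraries listed at 0 all 3 were called. At the 14 with 1 library at 0 it was 5 (35.7%), and at the 9 with neither at 0 it was 4 (44.4%). Over coding-start regions the shares called in these classes were 99.7%, 32.9% and 78.6%. The members lay below these shares only in the class with neither library at 0. The family had 53.8% of its regions in the class with 1 library at 0, against 44.8% of coding-start regions. Mrpl15 differed by 6.98 ± 0.58 (SE, n = 2 per group) on the log2(signal + 1) scale, with an adjusted p of 0.0040 by limma with Benjamini-Hochberg adjustment. For Mrpl57 it was 6.41 ± 0.52 with an adjusted p of 0.0039 by limma, and for Mrpl17 it was 4.59 ± 0.46 with an adjusted p of 0.0063. At Mrpl15 and Mrpl57 both IgG libraries were listed at 0, so they added no spread to the SE. Mrpl32 had a larger difference than Mrpl17, 5.92 ± 2.19, and an adjusted p of 0.082 by limma, with its IgG libraries at 0 and 41.8. The largest adjusted p by limma were 0.107 at Mrpl49 (1.84 ± 0.79), 0.1003 at Mrpl51 (4.74 ± 1.97) and 0.098 at both Mrpl34 (1.76 ± 0.72) and Mrps16 (2.45 ± 1.01). At single regions an exact permutation test of 2 against 2 libraries cannot give a two-sided p below 0.333.

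The count of calls depended on settings that the files leave undetermined. With a pseudocount of 0.1 limma called 7 members, beside 43.4% of all regions, and with 10 it called 24, beside 92.6%. With IgG taken as 4 times shallower it called 5, beside 26.8% of all regions. With column totals as library sizes, which cover the called regions alone, it called 3, beside 22.7%. Without Pou4f1 replicate 1 it called 4 members and without replicate 2 it called 5, whereas without the library named IgG it called 25 and without the negative control library 26, the lone library being assumed to vary like the other group. The shares of all regions called higher in these 4 fits were 29.4%, 30.9%, 94.4% and 95.9%. The genes called in every setting were Mrpl15, Mrpl54 and Mrpl57, the members whose IgG libraries were both listed at 0. The size of the difference at these genes depends on the pseudocount. With 0.1 and 10 it was 10.3 and 3.77 at Mrpl15, 9.98 and 3.50 at Mrpl54, and 9.72 and 3.24 at Mrpl57.

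In level, the family lay close to other promoters, with higher medians but slightly lower quartiles of the mean signal. The median member signal was 1.11 times that of coding-start regions in Pou4f1 replicate 1 and 1.06 times in replicate 2, and the ratio for the mean of both replicates was 1.14. By that mean 14 of 26 members were above the coding-start median, 3 of them (Mrps14, Mrpl32 and Mrpl17) among its highest 10% and 2 other members (Mrps30 and Mrpl14) were among its lowest 10%. The interquartile range of the mean signal, 110.5 to 215 in the members and 115 to 227 in coding-start regions, was nearly the same. Members with a start of their own had a median mean signal of 196 (n = 8), against 137 at shared starts (n = 18). In coding-start regions the order was the opposite, with 156 at own starts and 172 at shared ones.

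Replicate 2 was lower than replicate 1 at most members. The ratio of replicate 2 to replicate 1 had a median of 0.641 in the family and 0.698 over coding-start regions, and it was below 1 at 21 of 26 members (80.8%) and at 84.2% of coding-start regions. The lowest ratios were at Mrpl54 (0.244), Mrpl18 (0.300) and Mrpl49 (0.313). The highest were at Mrps7 (1.26), Mrps16 (1.21) and Mrps28 (1.12), followed by Mrpl50 and Mrpl48. Replicate 1 exceeded replicate 2 by over 2-fold at 6 members (23.1%, against 19.6% of coding-start regions) and the reverse occurred at 0 members (0.344%). Across the 26 genes the replicates correlated with a Pearson r of 0.743 on the log2 scale and a Spearman rho of 0.742, against 0.778 and 0.772 over coding-start regions. These describe genes within 1 pair of libraries and are not based on independent samples, since all genes of a library share its depth.

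**Figure D4:**
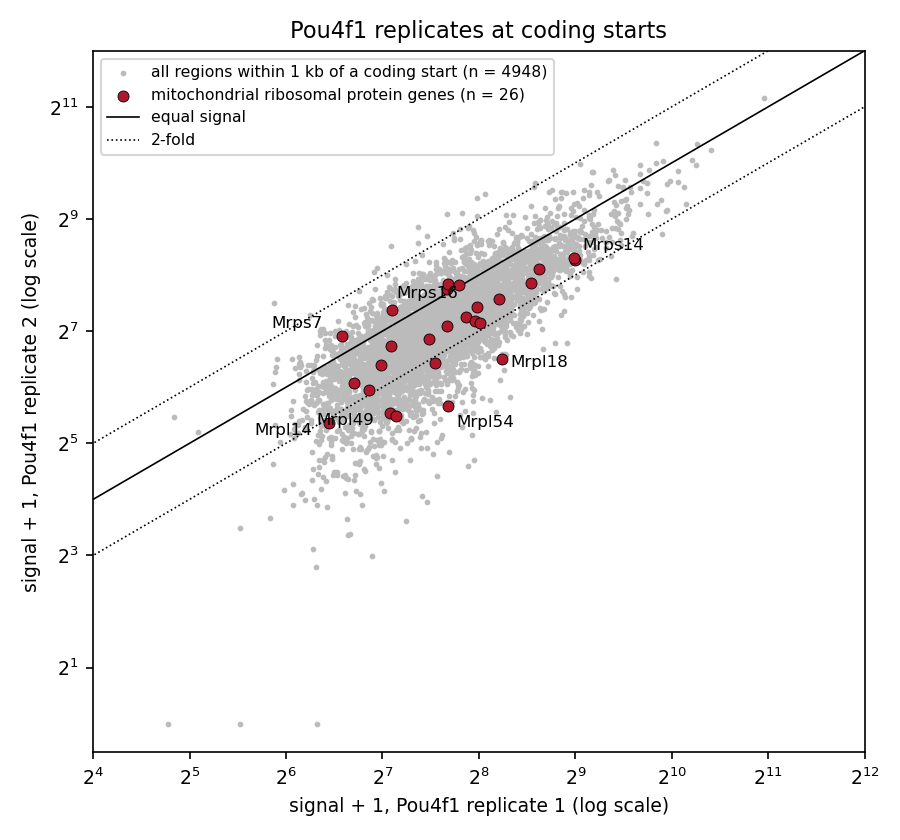
Signal plus 1 in Pou4f1 replicate 2 against replicate 1 on log axes, for 4948 regions within 1 kb of a coding start (grey) and the 26 member regions (dark), with lines of equal signal and of 2-fold difference. The members lie within the cloud, 21 of 26 below the line of equal signal, with Mrpl54 and Mrpl18 farthest below it.

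Sequence composition of the members was that of promoters. Their median length was 1011.5 bp and their median GC content 60.1%, against 1023 bp and 62.9% over coding-start regions. In the central 200 bp, the NRF1 core occurred in 7 of 26 regions (26.9%, exact binomial interval 11.6 to 47.8), against 9.28% of coding-start regions. The ETS core occurred in 5 (19.2%), against 8.31%. CCAAT occurred in 8 (30.8%, against 23.4%), and the SP core in 16 (61.5%, against 54.7%). The YY1 core AANATGGCG was found at Mrps7 alone (3.05% of coding-start regions), the cyclic-AMP response element TGACGTCA at Mrpl49 alone (1.33%), and the ZNF143 core ACTACAATT at 0 members (0.121%). Matches were counted on both strands, and the motifs were searched independently, so that they may overlap.

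A POU-type core, searched as ATNAATNAT, was in the central 200 bp of 0 of 26 member regions, which allows a share of up to 13.2% by the exact interval, and of 1.01% of coding-start regions. Over all regions of the table it was in 8.10%. In the whole length of the regions 1 member held it (3.85%, against 6.27% of coding-start regions and 21.7% of all regions). This was Mrpl17, with ATAAATTAT at chr7:105811477-105811485, 416 bp from the midpoint. The members thus shared the low frequency of this core with other regions at coding starts, and a missing match says only that these letters are not in the window.

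The same motifs were counted in the promoter windows of all 78 genes, 250 bp before to 50 bp after the 5′ end, which does not depend on a region. The ETS core was in 27 of 78 windows (34.6%), against 10.8% of all coding genes and 19.8% of CpG-rich ones, and the YY1 core was in 11 (14.1%), against 2.91% and 5.42%. The NRF1 core was in 15 (19.2%), against 8.30% and 17.3%. By presence of a region, the ETS core was in 7 of 26 genes with one and in 20 of 52 without, the YY1 core in 2 and 9, and the NRF1 core in 6 and 9. The SP core was in 18 of 26 genes with a region and in 17 of 52 without, against 43.0% of all coding genes and 75.8% of CpG-rich ones. These differences between genes with and without a region were not tested.

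**Figure D5:**
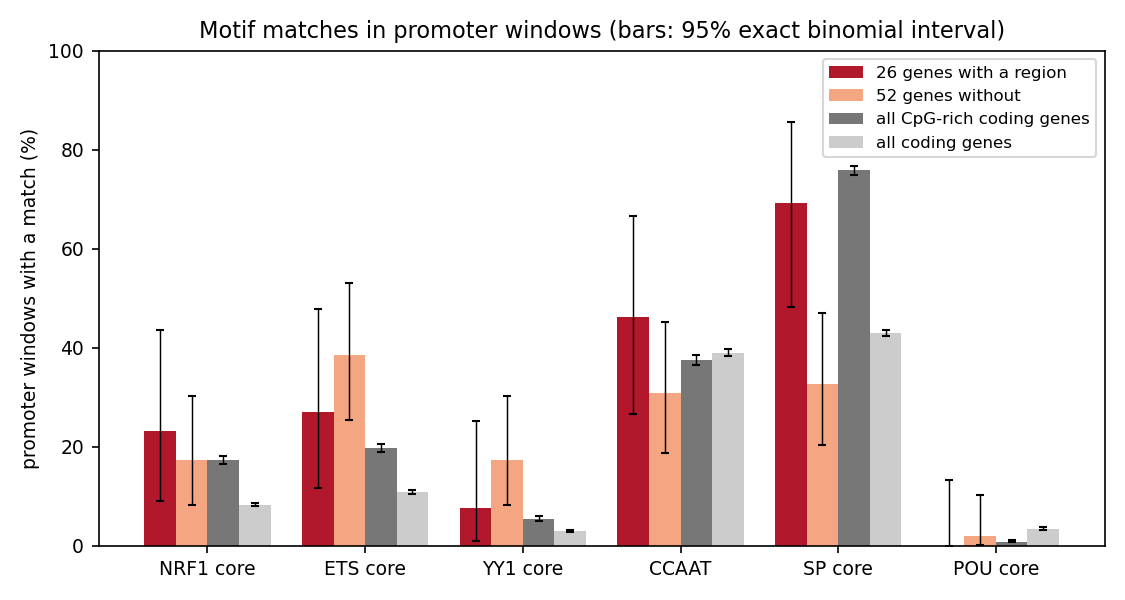
Percentage of promoter windows with a match to each motif core, for the 26 genes with a region, the 52 without, all CpG-rich coding genes and all coding genes, with 95% exact binomial intervals. The SP core stands at 69.2% with a region and 32.7% without, the ETS core is at 26.9% and 38.5%, and the POU core is at 0 in the genes with a region.

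Other genes of mitochondrial translation and mitochondrial DNA had regions about as often. The 5 lists held translation factors, tRNA synthetases, assembly factors, mitochondrial DNA and transcription genes, and ribosomal proteins with other symbols. Of their 69 genes 24 (34.8%) had a region, beside 24.9% of all coding genes. Limma called 17 of these 24 higher and 0 lower, beside 64.8% and 0.224% of all regions. The region of Sars2 is that of Mrps12 and was counted in both. The ribosomal proteins with other symbols had one in 0 of 5 genes, the translation factors in 5 of 13, the synthetases in 7 of 17, the assembly factors in 8 of 24, and the DNA and transcription genes in 4 of 10. Gfm2, a factor of ribosome recycling, had 134 and 125 in the Pou4f1 libraries with both IgG libraries listed at 0. Tfam, which packages mitochondrial DNA and drives its transcription, had 178 and 123, against 11.0 and 6.44. Wars2, the mitochondrial tryptophanyl-tRNA synthetase, had 342 and 316, against 11.4 and 11.6. All 3 were called higher. The Pou4f1 signals of Gfm2 and Tfam lay within the range of the 26 members, and that of Wars2 in replicate 2 was just above the highest member value there, 314 at Mrps14.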

How the data were processed

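Reads were, per the study's methods, trimmed, mapped to mm10 with Bowtie2 2.4.5 and passed to SEACR in relaxed mode for region calling against IgG. The authors deposited 1 table of 8038 regions with a mean signal per library, not read counts. How it was scaled is not given in the sources, so depth is unknown and no interval on a single signal was made. The library steps were 45.0, 61.2, 76.2 and 88.9 in the order Pou4f1 replicate 1, replicate 2, IgG and negative control.

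Starts came from GENCODE M21 and bases from GRCm38. Pou4f1 and IgG (n = 2 each) were compared on log2(signal + 1) with limma 3.58.1 in R 4.3.3 over all regions, with a threshold of 0.05, after a test on simulated data. Fold changes on this scale understate low regions. Where nothing shows separate pools of embryos, p-values measure only the spread between libraries. Shares had exact Clopper-Pearson intervals (scipy 1.17.1). Alternatives changed the pseudocount, the IgG scaling, the distance to a start and the libraries included. Every member was named, with values for the highest and lowest of each ribosome class, extremes of the replicate ratio and the largest adjusted p, and the remaining members were added. The members and lists were chosen with earlier results of these data known.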

Additional observations from a re-analysis of the deposited data

How the results depend on the processing

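The count of members called higher by limma (12 of 26) was 7 with a pseudocount of 0.1, 24 with 10, 7 with IgG taken as 2 times shallower, 5 with 4 times and 3 with column totals as library sizes, and it ran from 4 to 26 with 1 library left out. The share of all regions called was 43.4%, 92.6%, 36.7%, 26.8% and 22.7% under the first 5 of these. The count of members was 12 with a minimum summed signal of 50 and with a trend of spread on level, beside 64.8% and 66.4% of all regions. The difference of Pou4f1 and IgG turned below 0 at Mrpl34 (-0.19) and Mrpl49 (-0.11) with IgG 4 times shallower. With column totals it did so at Mrpl14 (-1.89), Mrpl34 (-2.21), Mrpl40 (-0.31), Mrpl49 (-2.13), Mrps16 (-1.52) and Mrps7 (-0.33). Those totals cover only regions called with Pou4f1 against IgG. Dividing by them sets the summed signal of the libraries equal and takes out part of the difference by construction. That scaling moved the median of all regions from 5.22 to 2.74. The share of genes with a region, 33.3%, was 15.4% when called regions alone were counted (15.7% of all coding genes), and between 30.8% and 37.5% under each of the other alternatives, including a CpG-rich class by any transcript start that was added after the data were seen (33.3%, against 42.0% of all coding genes). The ratio of member to coding-start signal, 1.14, was 1.07 with signal times region length, 1.04 against all regions, 1.21 within 500 bp and 1.06 to 1.11 with 1 replicate alone. The NRF1 share and the shared starts kept their side of the background. The response element TGACGTCA was in 3.85% of members against 1.33% of coding-start regions in the central 200 bp and against 5.38% over whole regions. The share of members with a replicate ratio below 1 (80.8%) lay above and not below the background with each library divided by its median (69.2%) and against all regions (66.8%). No paired analysis was possible because the IgG columns carry no replicate number. The cause of these changes was not tested. With 2 libraries per group and no depth given, small differences in signal were not detectable.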
